A study of Mus musculus with 16 samples.

Results

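Histone genes, which encode the proteins that package DNA into nucleosomes, were described in bone of wild type mice after ovariectomy (titled OVX) and after a sham operation (titled NC). They were taken from the RNA table by their symbols (Hist1 to Hist4 names and the current H1f, H2ac, H2bc, H3c, H4c, H2af, H2az, H2ax and H3f names, without pseudogenes ending in -ps) and by a mean count above 0, which gave 76 of 25239 genes. A further symbol, H1f7, matched the names and had a mean of 0. N6-methyladenosine (m6A), a methyl mark on adenosines inside RNA, was measured by sequencing RNA fragments pulled down with an antibody (IP) beside the RNA before the pull-down (input), with 4 input and 4 IP libraries titled OVX and 4 input and 4 IP libraries titled NC. The treatment label of all 8 IP libraries reads ovariectomy, so the arms follow the titles. The labels give no age, strain or pooling and do not say whether each library is a separate animal. Ovariectomy is used as a model of bone loss after the loss of estrogen. Whole bone was sampled, and marrow, muscle and bone cell markers were all present, so that in such bulk samples fewer cells of a type and less RNA per cell cannot be told apart.

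Both tables give comparisons that the authors made and leave out the values of individual libraries. Neither says which arm is the numerator, so signs are given as deposited, and the numerator may differ between the tables. The mean count of a gene is its count divided by library size factors and averaged over libraries. From that mean and the fold change, a level in each arm was computed on the assumption of 4 libraries an arm. The smallest means in the authors' deposited table took 8 distinct values, 4 with a positive and 4 with a negative fold change. These implied arm levels have no error of their own. The error of the comparison is the standard error (SE) of the log2 fold change. A call is a deposited adjusted p under 0.05.

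Histones H2A, H2B, H3 and H4 form the nucleosome core and H1 binds the linker DNA between cores. Replication-dependent histone genes lie in clusters, have no introns as a rule, are transcribed mainly in S phase and give messages that end in a stem-loop in place of a poly(A) tail. Replacement and variant histones are encoded by single genes whose messages are usually polyadenylated, and they are deposited outside S phase too. Bone marrow holds many dividing blood precursors, which need new histones at each division. By symbol, 62 of the 76 genes were replication-dependent, 7 were replacement or variant genes, 5 were genes known from germ cells, and H3f3c and H2afy3 were put in neither group. The library kit is named as an mRNA kit, and the labels do not say whether poly(A) RNA was selected. How far messages without a tail were sampled was not tested.

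The promoters of the called genes are shown so that the letters searched can be seen in place, and 7 of the 9 had an entry in the RefSeq promoter table (build GRCm38.p6). Each sequence below ends at the base before the annotated start and runs 5′ to 3′ along the gene. Capitals mark the letters CCAAT and TATAAA on either strand. For H2ac11 and H2ac13 the whole stretch to the neighbouring H2B gene is given, and 120 bases for the others.
H2ac11 (chr13:22042950-22043197, minus strand): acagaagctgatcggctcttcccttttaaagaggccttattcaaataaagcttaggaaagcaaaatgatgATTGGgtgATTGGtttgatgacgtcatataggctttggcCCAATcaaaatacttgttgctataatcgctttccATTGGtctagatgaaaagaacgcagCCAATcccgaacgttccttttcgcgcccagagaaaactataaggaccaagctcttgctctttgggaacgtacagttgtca
H2ac13 (chr13:21716184-21716411, plus strand): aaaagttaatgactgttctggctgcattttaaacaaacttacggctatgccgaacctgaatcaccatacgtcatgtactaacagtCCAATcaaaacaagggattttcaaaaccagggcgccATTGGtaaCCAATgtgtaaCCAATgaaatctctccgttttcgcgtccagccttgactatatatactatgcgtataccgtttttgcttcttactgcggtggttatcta
H1f3 (chr13:23554912-23555031, plus strand): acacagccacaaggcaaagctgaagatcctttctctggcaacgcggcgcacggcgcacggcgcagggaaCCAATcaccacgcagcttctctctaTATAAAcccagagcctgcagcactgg
H4c9 (chr13:22041363-22041482, minus strand): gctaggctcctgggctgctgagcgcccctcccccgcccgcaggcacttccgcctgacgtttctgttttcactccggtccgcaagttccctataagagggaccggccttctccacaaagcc
H3c13 (chr3:96268534-96268653, plus strand): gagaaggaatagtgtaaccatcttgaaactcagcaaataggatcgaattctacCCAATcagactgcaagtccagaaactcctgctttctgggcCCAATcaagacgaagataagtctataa
H3f3a (chr1:180813606-180813725, minus strand): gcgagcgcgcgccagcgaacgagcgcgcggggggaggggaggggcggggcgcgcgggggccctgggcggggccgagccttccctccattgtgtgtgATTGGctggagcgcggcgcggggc
H1f0 (chr15:79028092-79028211, plus strand): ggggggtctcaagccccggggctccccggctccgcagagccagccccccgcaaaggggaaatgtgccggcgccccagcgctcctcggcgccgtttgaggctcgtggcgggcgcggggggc
H2ac11 and H2ac13 each carried CCAAT in both orientations between the H2A and the H2B gene, H3c13 carried it in 1 orientation, and H1f3 had CCAAT upstream of TATAAA. Of the single genes H3f3a also carried CCAAT, and the stretches of H1f0 and of the cluster gene H4c9 held neither motif.

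CCAAT was searched on both strands of the 250 bases before the start. It was present in 41 of 49 promoters of replication-dependent genes (83.7%), in 4 of 6 promoters of replacement and variant genes (66.7%), and in 33.8% of all 32851 promoters in the table. All 13 H2A, all 12 H2B and all 5 H1 promoters of this group held it, and 3 of 9 H4 promoters did. TATAAA was present in 44.9% of the replication-dependent promoters, in 1 of the 6 of replacement and variant genes, and in 12.4% of all promoters. Of the 18 replication-dependent promoters with TATAAA on the gene's own strand, 9 had its first base 40 to 20 bases before the start, where a TATA box usually lies. The octamer ATTTGCAT is a known element of H2B promoters. Among replication-dependent genes it was found in 6 of 12 H2B and 5 of 13 H2A promoters and in no H1, H3 or H4 promoter. It was in 1 of 6 promoters of replacement and variant genes and in 1.60% of all promoters. GGGCGG was present in 34.7% of the replication-dependent promoters, near the 32.7% of all promoters, and in 4 of 6 of replacement and variant genes. By type it was in 8 of 9 H4 promoters (88.9%) and in 0 of 12 H2B promoters. TTTCCCGC, one form of the E2F site, was found in 1 replication-dependent promoter, against 0.895% of all promoters. H2A and H2B genes that face each other share these letters, so their promoters are not separate observations, and a match describes the letters and not a bound factor.

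Most histone genes had a positive fold change, and few passed the test. Of the 76 genes, 64 were positive and 12 negative in the authors' deposited table. An adjusted p was given for 70 of them, those with the higher means, of which 60 were positive (85.7%), against 46.7% of all 15396 genes with an adjusted p. The median log2 fold change of these 70 genes was 0.41 in the authors' deposited table (median SE 0.32), against -0.02 for all genes with an adjusted p. It was smaller where counts were higher, at 0.27 for histone genes averaging 100 counts or more, and the mean weighted by the inverse of the squared SE was 0.22. Calls were 9 of 70, or 12.9%, near the 12.2% called among all genes. They were unequal in sign: 8 were positive, or 11.4%, against 6.07% of all genes, and 1 was negative, or 1.43%, against 6.11% of all genes. Genes of one family share sequence, regulation and libraries, so their fold changes are not independent of each other.

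**Figure D1:**
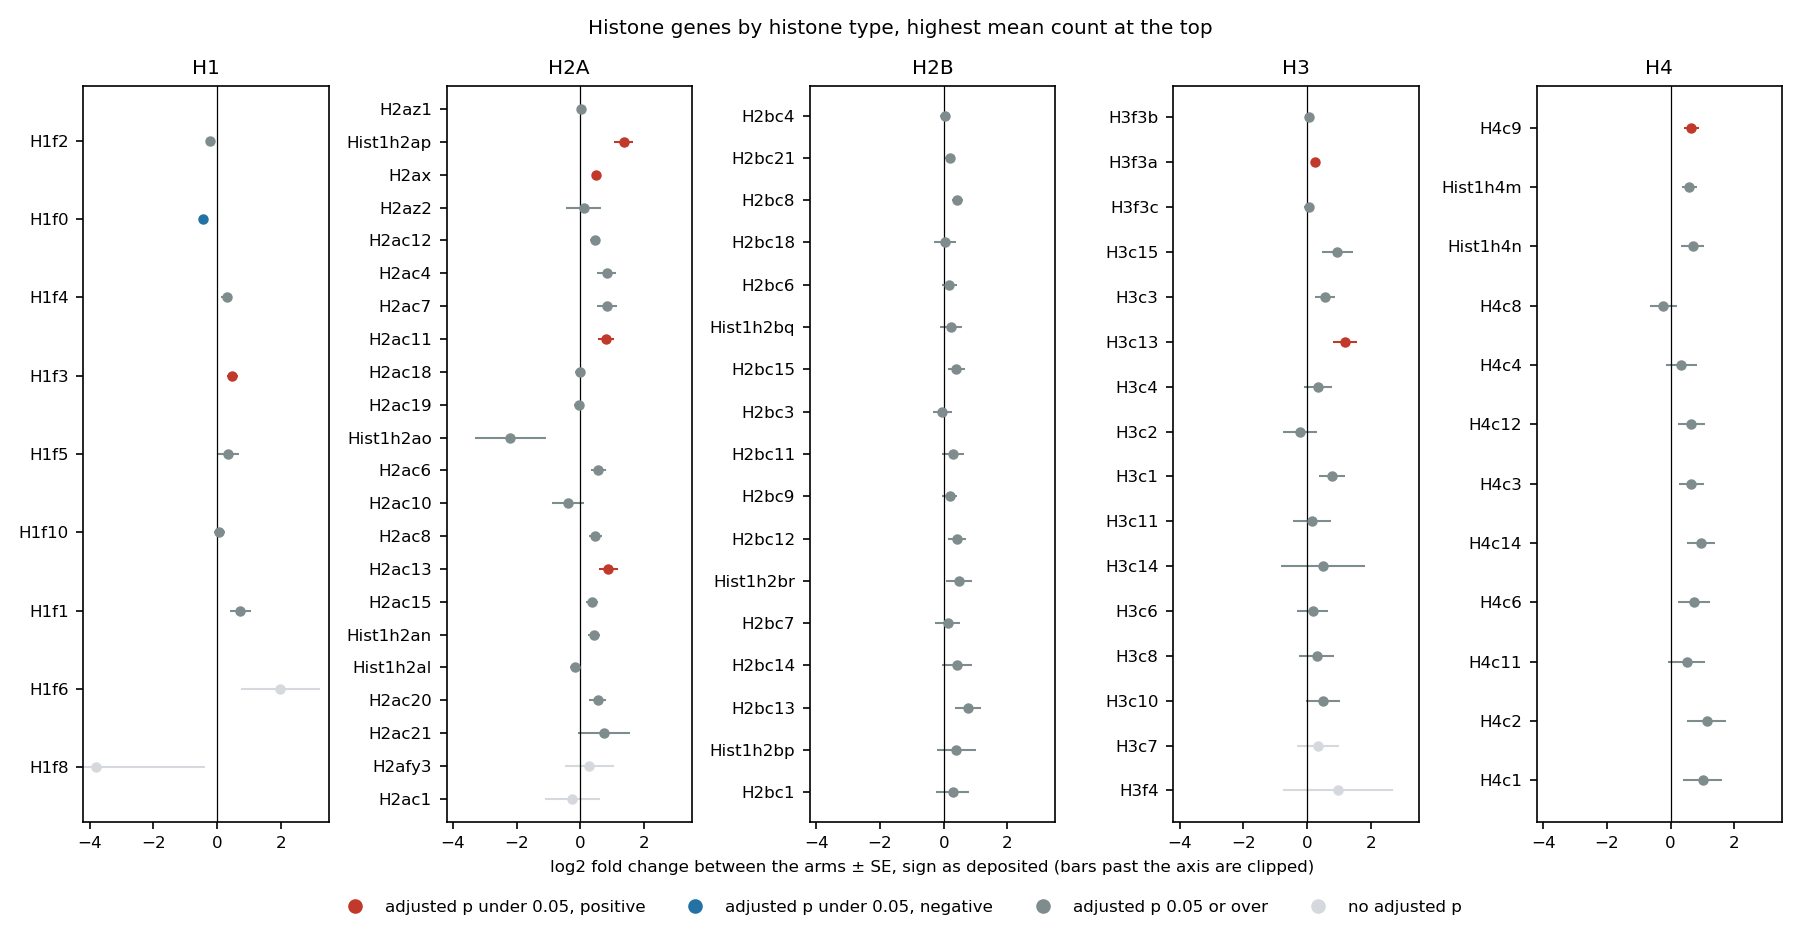
Log2 fold change between the arms (x axis, sign as deposited) with its SE for all 76 histone genes, in a panel for each histone type, sorted by mean count with the highest at the top. Most points sit to the right of 0 (64 of 76), up to 1.36 for the called genes at Hist1h2ap, and H1f0 is called to the left at -0.44.

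The count of calls moved with the threshold. At an adjusted p under 0.1, the authors' deposited table held 13 positive histone genes, with 8.66% of all genes positive under that rule, and 1 negative, with 9.05% of all genes. At an unadjusted p under 0.05 it held 21 positive and 1 negative histone genes, with 10.1% of all genes with a p positive and 11.4% negative. When a log2 fold change of 1 or more in either direction was asked for as well, Hist1h2ap and H3c13 remained, with 0.611% of all genes positive, and no negative gene, with 1.94% of all genes. Adjusting over every gene with a p gave 8 and 1 (background 4.58% and 4.55%). Adjusting over genes with a mean of at least 50 gave 9 and 1 (background 7.01% and 6.84%). The 3 genes just under the lowest mean that has an adjusted p, 12.4 counts, were H3c7, H2afy3 and H1f6 at means of 11.5, 10.4 and 3.81. The 3 just above it were H2bc1, H4c1 and H4c2 at 12.9, 13.8 and 15.97.

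H2A genes of the clusters gave most of the reads of replication-dependent genes and the called gene with the highest fold change. The 17 genes summed to 20302 mean counts of the 29330 of all replication-dependent genes, and all histone genes took 0.173% of the counts in the table. Hist1h2ap had an implied level of 8987 counts in the numerator arm and 3494 counts in the denominator arm. Its log2 fold change was 1.36 ± 0.30 in the authors' deposited table (adjusted p = 0.000342). Hist1h2ao went the other way, with 381 counts in the numerator arm and 1746 in the denominator arm. Its value of -2.19 ± 1.12 in the authors' deposited table did not pass (adjusted p = 0.194). RefSeq gives Hist1h2ap as an older name of both H2ac23 and H2ac24, and Hist1h2ao as another older name of H2ac23, so which locus each row counts is unclear. Reads could be divided between the rows, which are counted here as separate genes as the table lists them, and each value alone is uncertain. The pair summed to 9368 counts in the numerator arm and 5240 in the denominator arm, a log2 ratio of 0.84.

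H2ac11 had 1837 counts in the numerator arm and 1051 in the denominator arm, a call at 0.81 ± 0.24 in the authors' deposited table (adjusted p = 0.0129). H2ac13 had 555 and 301 counts in the same order of arms, a call at 0.88 ± 0.30 in the authors' deposited table (adjusted p = 0.037). Of the others of high mean, H2ac4 and H2ac7 had values close to that of H2ac11 with a larger SE. They had 0.83 ± 0.30 and 0.82 ± 0.31, as listed in the authors' deposited table and missed the threshold (adjusted p = 0.0517 and 0.0637). The means of H2ac4 and H2ac7 were nearly equal, at 1586 and 1565 counts. Reads could be shared between H2A rows where their sequences match, so these rows may not be separate measurements. This was not tested. H2ac12 stood at 0.45 ± 0.17 in the authors' deposited table (adjusted p = 0.0533). The copies H2ac18 and H2ac19 of the second cluster were close to 0, at -0.02 ± 0.13 and -0.04 ± 0.15 in the authors' deposited table, with means of 1411 and 1349 counts. Of the 17 H2A genes, 12 were positive and 5 negative (70.6% positive, against 46.7% of all genes with an adjusted p). Of the 17, 3 were called positive, or 17.6%, and 0 negative, against 6.07% and 6.11% of all genes. Their implied levels summed to 24384 counts in the numerator arm and 16219 in the denominator arm, a log2 ratio of 0.59. It was 0.28 without Hist1h2ap alone and 0.45 without both Hist1h2ap and Hist1h2ao, which were left out after their values were seen.

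**Figure D2:**
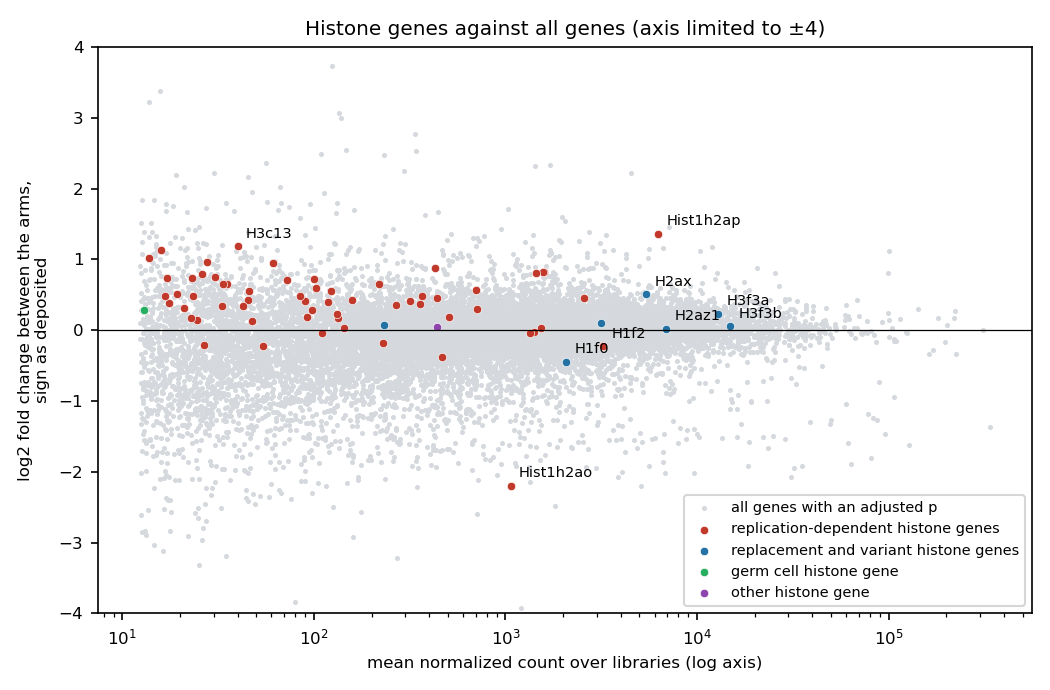
Mean normalized count (x axis, log scale) and log2 fold change (y axis, sign as deposited) of all genes with an adjusted p in grey, with histone genes coloured by group. Most replication-dependent genes with an adjusted p lie above 0 (52 of 61), and H1f2, H2ac18 and H2ac19, of high mean, lie below it. Hist1h2ap and Hist1h2ao stand apart at 1.36 and -2.19. Of the replacement and variant genes of high mean, H3f3b and H2az1 lie near 0, and H3f3a and H2ax are called at 0.23 and 0.50.

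H3 and H4 genes of the clusters had low counts and values that were positive in most cases. The 12 H4 genes had a median of 0.65 (11 positive, 1 called) and means of 13.8 to 218 counts in the authors' deposited table. The call was positive and made up 8.33%, against 6.07% of all genes called positive. H4c9, which lies beside H2ac11, was the called one, with 266 counts in the numerator arm and 170 in the denominator arm. It stood at 0.65 ± 0.23 in the authors' deposited table (adjusted p = 0.0393). H4c12 and H4c3 had the same value, 0.65, with SEs of 0.43 and 0.39 in the authors' deposited table, and neither passed. The single negative gene was H4c8, at -0.22 ± 0.43 in the authors' deposited table.

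Among 12 H3 genes, 11 were positive. The 1 call was 9.09% of those with an adjusted p, against 6.07% of all genes called positive. It was H3c13, with 55.6 counts in the numerator arm and 24.4 in the denominator arm. Its value was 1.19 ± 0.37 in the authors' deposited table (adjusted p = 0.0193). H3c14 and H3c15, of the same cluster, had 0.49 ± 1.32 and 0.95 ± 0.48, as listed in the authors' deposited table without passing. The H3c genes had means of 11.5 to 61.2 counts, and the SE was 0.305 or more in each of the 12.

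H2B genes had the lowest median fold change among the core histones of the clusters, and differences between the types were not tested. Of 16 genes, 15 were positive and none was called in the authors' deposited table, where 1 had an unadjusted p under 0.05. Of all genes, 6.07% were called positive, and 10.1% of those with a p were positive at an unadjusted p under 0.05. The median of the H2B genes was 0.26 in the authors' deposited table (median SE 0.31), with a range of -0.04 to 0.75. H2bc4 gave the most reads, with 1546 counts in the numerator arm and 1519 in the denominator arm, at 0.03 ± 0.15 in the authors' deposited table. H2bc21 stood at 0.18 ± 0.17 in the authors' deposited table. H2bc8, with the smallest p of the type, stood at 0.43 ± 0.18 in the authors' deposited table (adjusted p = 0.104). Summed implied levels were 3505 counts in the numerator arm and 3173 in the denominator arm, a log2 ratio of 0.14. H2bc4 alone gave 1546 and 1519 counts of these sums.

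H2A and H2B genes often lie head to head across a short shared promoter, and 9 such neighbours, 163 to 280 bases apart in RefSeq, were measured. In 8 of the 9, both genes had a positive fold change, and in 7 the H2A gene had the higher value in the authors' deposited table. At H2ac11 and H2bc11 the values were 0.81 ± 0.24 and 0.29 ± 0.34, and at H2ac13 and H2bc13 they were 0.88 ± 0.30 and 0.75 ± 0.41 in the authors' deposited table. Across the promoter of H2ac6 and H2bc4 the authors' deposited table gave 0.57 ± 0.23 and 0.03 ± 0.15. The difference within a pair was not tested, since the covariance of the fold changes is not in the table. In 7 of the pairs both genes had a RefSeq span under 1 kb, and in 6 of these the H2A gene had the higher mean count per kb. The exception was the germ cell pair H2ac1 and H2bc1, with means of only 3.62 and 12.9 counts. In the pairs left out, the H2B gene had the higher mean count: 701 in H2ac6 and 1533 in H2bc4, and 123 in H2ac20 and 506 in H2bc21. H2ac12 had 4902 counts per kb and H2bc12 had 180, and H2ac7 and H2bc7 had 2926 and 106. These levels depend on how reads were assigned among genes that share sequence, which was not tested.

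**Figure D3:**
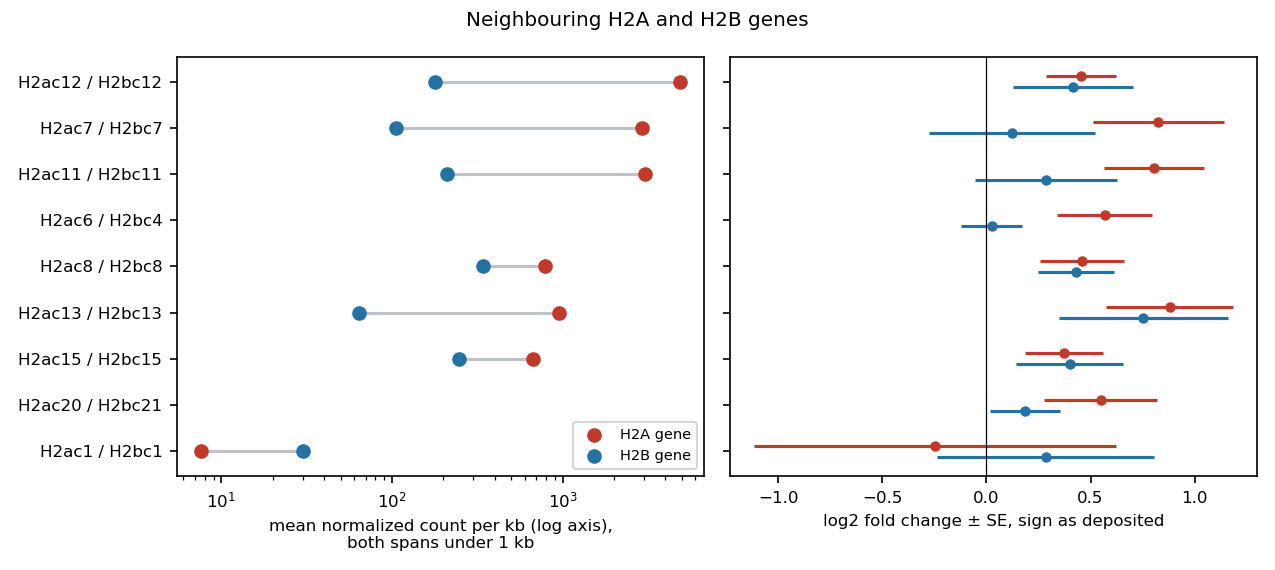
Mean normalized count per kb (left, log axis, for the 7 pairs with both spans under 1 kb) and log2 fold change with its SE (right, sign as deposited) of 9 neighbouring H2A and H2B genes, H2A in red and H2B in blue. The H2A gene has the higher count per kb in 6 of 7 pairs and the higher fold change in 7 of 9.

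Levels of replication-dependent genes were also set per length, for genes with a RefSeq span under 1 kb. On this scale of mean counts per kb, 13 H2A genes had a median of 1440, 5 H1 genes 471, 10 H2B genes 195, 10 H4 genes 78.7 and 12 H3 genes 51.6. H2ac12 was highest with 4902 counts per kb, followed by the linker gene H1f2 with 4458. The highest H3 gene, H3c3, had 95.04 counts per kb, below the lowest H1 gene at 134. H2A levels overlapped with those of every other type, from 36.5 to 4902 counts per kb. The limit on span left out H2bc4 and H2bc21, the H2B genes of highest mean, at 1533 and 506 counts. Hist1h2ap, the H2A gene of the clusters with the highest mean, at 6241 counts, had no RefSeq span and was left out too. How evenly messages of the types were sampled was not tested.

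Linker histone genes went in both directions. H1f0 encodes a linker histone that accumulates in cells that have stopped dividing. It was the only called histone gene with a negative sign, with 1761 counts in the numerator arm and 2395 in the denominator arm. Its value was -0.44 ± 0.12 in the authors' deposited table (adjusted p = 0.00446). H1f3, a replication-dependent linker, had 426 counts in the numerator arm and 305 in the denominator arm. It was called at 0.49 ± 0.17 in the authors' deposited table (adjusted p = 0.0385). The other replication-dependent linkers did not pass: H1f1 had 0.73 ± 0.33, H1f5 0.36 ± 0.32 and H1f4 0.30 ± 0.17 in the authors' deposited table. H1f2, the linker gene with the most reads, had 2979 counts in the numerator arm and 3486 in the denominator arm, at -0.23 ± 0.13 in the authors' deposited table (adjusted p = 0.258). Because of H1f2, the 5 genes summed to 4618 counts in the numerator arm and 4738 in the denominator arm, although 4 of the 5 were positive. H1f10, a linker variant outside the clusters, stood at 0.07 ± 0.17 in the authors' deposited table.

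Replacement and variant histones made up 7 genes. Their means ran from 233 counts in H1f10 to 14870 in H3f3b, and their SEs from 0.07 in H3f3a to 0.55 in H2az2. Of the 7, 3 were called (2 positive and 1 negative), or 42.9%, against 12.2% of all genes. Their median SE was 0.13, against 0.17 for all genes with an adjusted p and 0.33 for replication-dependent genes. The part of this precision in the share called was not tested. H3f3a and H3f3b encode the same replacement form of H3, which is deposited independently of replication. H3f3a had 13980 counts in the numerator arm and 11890 in the denominator arm, a call at 0.23 ± 0.07 in the authors' deposited table (adjusted p = 0.0201). H3f3b had 15139 and 14601 counts in the same order and stood at 0.05 ± 0.09 in the authors' deposited table (adjusted p = 0.762). H2ax, whose protein is phosphorylated around DNA breaks, had 6377 counts in the numerator arm and 4496 in the denominator arm. It was called at 0.50 ± 0.13 in the authors' deposited table (adjusted p = 0.00228). H2az1 and H2az2 encode forms of H2A.Z, which marks promoters, and had 0.02 ± 0.14 and 0.11 ± 0.55, as listed in the authors' deposited table. H3f3c, a gene related to H3f3a and H3f3b by name, stood at 0.05 ± 0.15 in the authors' deposited table. Reads of the H3f3 genes could be shared where their sequences match.

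Genes known from germ cells were near the floor of detection. H1f6 of testis, H1f8 of oocytes, H2ac1 and H3f4 had means of 3.81, 1.26, 3.62 and 2.12 counts and no adjusted p in the authors' deposited table. H2bc1 of testis, with a mean of 12.9 counts, stood at 0.28 ± 0.52 in the authors' deposited table. Some histone genes carry names outside the symbols used here. Cenpa, the centromeric form of H3, stood at 0.36 ± 0.15 and Macroh2a1 at 0.13 ± 0.11 in the authors' deposited table, and neither passed (adjusted p = 0.0908 and 0.478).

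Genes that make and place histones were positive in most cases, where 46.7% of all genes with an adjusted p were positive, 6.07% were called positive and 6.11% negative. Of 18 tested genes of histone message processing and turnover, 15 were positive and 2 were called, both positive, in the authors' deposited table, or 11.1%. Eri1, an exonuclease that trims the histone stem-loop, stood at 0.28 ± 0.09 and Ncbp2, of the cap-binding complex, at 0.36 ± 0.13 in the authors' deposited table. Slbp, which binds the stem-loop, had 0.42 ± 0.19 and Npat, the activator of the clusters, 0.08 ± 0.11 in the authors' deposited table, without passing. Of 29 histone chaperone and deposition genes, 25 were positive and 5 were called, all positive (median 0.14), in the authors' deposited table, or 17.2%. Tonsl, which binds newly placed histones behind the fork, stood at 0.43 ± 0.11 and the chaperone Asf1b at 0.42 ± 0.14 in the authors' deposited table. Daxx, which deposits the replacement form of H3, stood at 0.22 ± 0.06 in the authors' deposited table, and Srcap, which exchanges H2A.Z into nucleosomes, at 0.33 ± 0.10. Of 5 genes of the centromeric histone and its loading, 4 were positive and none was called in the authors' deposited table (2 had an unadjusted p under 0.05, Cenpa and Hjurp).

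Markers of dividing cells and of red and B cell precursors were positive in most cases, beside the 6.07% of all genes called positive and 6.11% called negative. These lists and those above were chosen with earlier results of these data known, so their shares are descriptions and carry no test. All 20 S phase and proliferation genes were positive and 5 were called, or 25% (median 0.27), in the authors' deposited table. Among them, Rrm2, which supplies deoxynucleotides, stood at 0.36 ± 0.13 and Ccne2, a cyclin of S phase entry, at 0.46 ± 0.16 in the authors' deposited table. All 12 B cell precursor genes were called with a positive sign, from 0.70 to 3.07, in the authors' deposited table. Of 12 erythroid precursor genes, 10 were positive and 5 were called, all positive, or 41.7% (median 0.38), in the authors' deposited table. Neutrophil genes had 0 of 10 called, and 0 at an unadjusted p under 0.05 (median -0.23), and skeletal muscle genes had all 12 negative with 2 called (median -1.31) in the authors' deposited table. Of 12 bone cell genes, 2 were called positive and 1 negative (median -0.17) in the authors' deposited table. The part of cell composition in the histone values was not tested, and summed marker levels per library were not at hand.

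m6A peaks were few in histone genes. The authors' deposited table of peaks held 6 in 5 histone genes, among 13083 peaks. Of the 70 histone genes with an adjusted p in the RNA table, 5 carried a peak (7.14%), against 44.3% of all such genes. Peaks were more frequent in genes with more reads, and the share of histone genes was the lower one in each class of mean count. With a mean of at least 1000 counts, 4 of 16 histone genes had a peak (25%), against 65.7% of all genes. With 100 to 1000 counts, 1 of 22 did (4.55%), against 35% of all genes, and under 100 counts 0 of 32, against 6.32%. Short genes had fewer peaks as a group: with a RefSeq span under 1 kb and a mean of at least 100 counts, 2 of 21 histone genes (9.52%) had one, against 20% of the 90 such genes in all, which include the histone genes. None of the 17 replication-dependent H2A genes carried a peak, nor did H3f3a, H3f3b, H2az1 or H2az2. These shares carry no test.

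**Figure D4:**
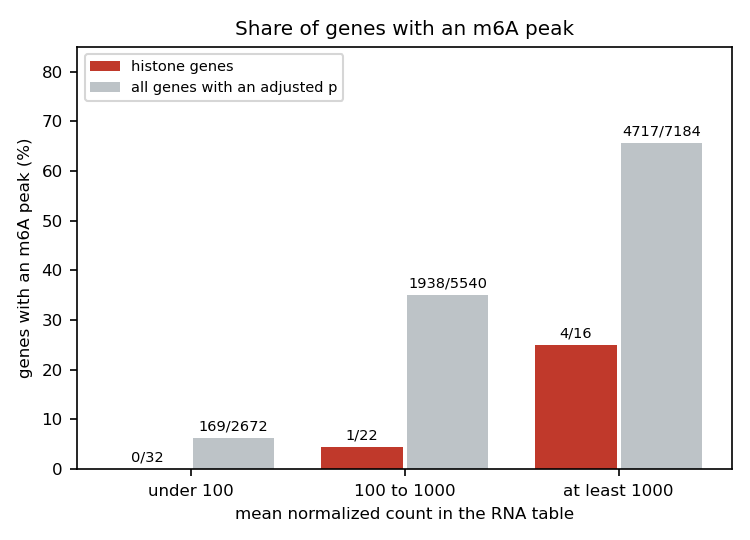
Percent of genes with at least 1 m6A peak (y axis) by class of mean normalized count (x axis), for histone genes in red and all genes with an adjusted p in grey, with numbers above the bars. Histone genes stand at 0, 4.55 and 25% in the 3 classes, against 6.32, 35 and 65.7% of all genes.

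The peaks lay in H2ax, H1f0, H1f2, H1f4 and H2bc4, that is in 3 linker genes, a variant and an H2B gene. Positions are those of the peak table, counted from 1. The peak table names no build, but 99.8% of its peaks whose symbol is in RefSeq lay inside that gene on GRCm38. H2ax carried 2 peaks on the plus strand of chromosome 9, at 44335540 to 44335636 with an enrichment of IP over input of 2.04, and at 44335782 to 44336024 with 2.39, in the authors' deposited table. The second ended 53 bases before the annotated end of the gene. The H1f2 peak (chromosome 13, 23739193 to 23739434, plus strand) had an enrichment of 2.25 in the authors' deposited table. The H1f4 peak (chromosome 13, 23621972 to 23622119, minus strand) had 2 in the authors' deposited table. In H1f2 it began 53.4% and in H1f4 56.3% of the way along the gene. The H1f0 peak (chromosome 15, 79028958 to 79029306, plus strand) had 1.60 in the authors' deposited table and lay between 32.6% and 47.8% of the gene. H1f2, H1f4 and H1f0 each had 1 peak within 1 block of exon.

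The H2bc4 peak was unlike the others. It joined exon blocks of 34 and 112 bases over 23684634 to 23692287 of chromosome 13 (plus strand), from near the start to near the end of the gene, with the lowest enrichment of the 6, 1.30, in the authors' deposited table. Most replication-dependent histone genes have no intron, and H2bc4 spans 8282 bases in RefSeq. The median enrichment of the 6 peaks was 2.02, against 1.82 for all peaks (quartiles 1.54 and 2.20). Of the 6, 4 reached an enrichment of 2, against 37.3% of all peaks.

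**Figure D5:**
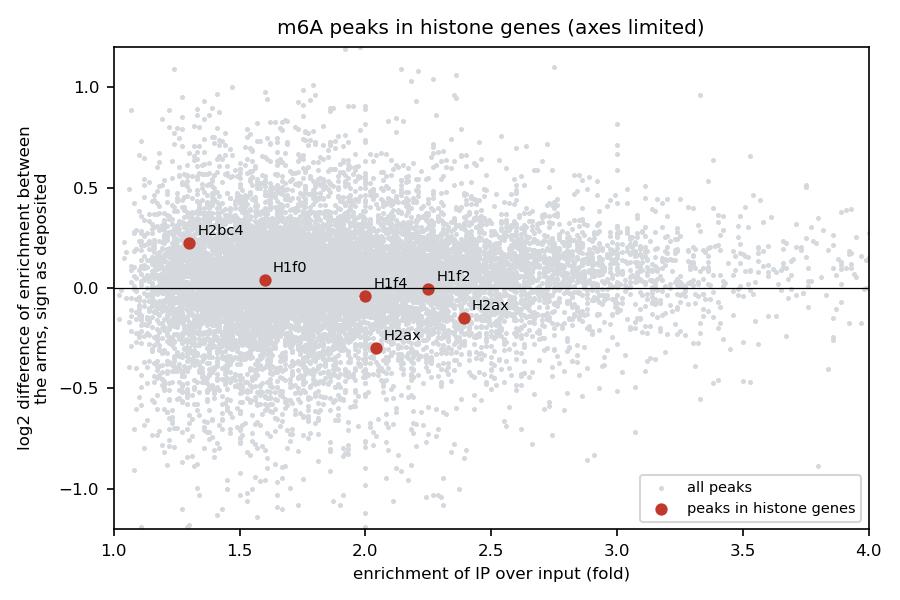
Enrichment of IP over input (x axis, fold) and log2 difference of enrichment between the arms (y axis, sign as deposited) of all peaks in grey and the 6 peaks of histone genes in red. The histone peaks run from 1.30 to 2.39 in enrichment and from -0.30 to 0.22 in the difference, inside the cloud of all peaks.

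No histone peak differed between the arms at a difference p under 0.05 in the authors' deposited table, which was reached by 4.92% of all peaks and by 4.85% of those with an enrichment of at least 2. Under a p of 0.1 there were 2, against 8.93% of all peaks, and at an FDR under 0.05 there were 0, against 0.0229% of all peaks. These 2 were the H2bc4 peak, with a log2 difference of 0.22 (p = 0.0912), and the first H2ax peak, with -0.30 (p = 0.0955), as deposited by the authors and not computed here. The second H2ax peak had -0.15 for the difference in the authors' deposited table, with a p of 0.528. Both H2ax peaks were negative while the fold change of H2ax RNA was positive, and the numerator may differ between the tables. The differences of H1f0, H1f2 and H1f4 were 0.04, -0.004 and -0.04 in the authors' deposited table, below the median absolute difference of 0.14 over all peaks. H1f0 RNA was called and its peak was not.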

How the data were processed

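RNA and m6A were compared in mouse bone from 16 libraries. HISAT2, StringTie and DESeq, and the rat build rn6, appear in the submitters' processing notes with no role given. Per the labels, a stranded mRNA kit with molecular identifiers was used. Per the file headers, the authors deposited for each gene a p-value, unadjusted and adjusted, the Wald score, the log2 fold change and its SE, and the mean of normalized counts as a signal. For each peak the authors deposited a p-value, log10 values of p and FDR, the fold enrichment as a ratio, and the log2 difference between arms with log10 p as a score. No per-library values were at hand, so the planned edgeR fit, left-out libraries and replicate block were not run, and the depth of single libraries is unknown.

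The deposited adjusted p-values were recomputed without difference by the Benjamini-Hochberg method across 15396 genes. No model was fitted here, and the deposited tests were used. The members and lists were chosen with earlier results of these data known. Genes named were all called ones, those with a peak, the 15 of highest mean, those around the lowest mean with an adjusted p and up to 4 called genes of each list, and other members and list genes named were chosen after their values were seen. Of 76 symbols, 66 were in RefSeq. Replication-dependent, variant and germ cell groups were set by symbol. The p-values measure the spread between libraries, which may be technical. Alternatives are a different threshold, adjustment set, choice of members and enrichment minimum. The adjustment was tested on simulated data. Python 3.11.15, numpy 2.4.6, pandas 2.3.3, statsmodels 0.14.6 and matplotlib 3.10.9 were used.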

Additional observations from a re-analysis of the deposited data

How the results depend on the processing

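The 8 positive calls became 13 at an adjusted p under 0.1, 21 at an unadjusted p under 0.05 and 2 when a log2 fold change of 1 or more in size was also asked for, and stayed at 8 and 9 under the other adjustments. The 1 negative call became 0 with that minimum and stayed at 1 otherwise. The median log2 fold change of 0.40 over all 76 genes stayed positive in each alternative tried, with 0.41 for genes with an adjusted p, 0.27 at means of at least 100, 0.22 as a weighted mean and 0.39 without genes that are no RefSeq symbol, a choice made after seeing the data. Genes with a peak were 3 of the 5 at an enrichment of at least 2. Peaks with a difference p under 0.1 were 2. No paired analysis was possible because the tables hold no values of single libraries, and leaving out libraries was not run for the same reason. Low means, at most 61.2 counts in H3 genes of the clusters, limit the precision there.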
